A study of Mus musculus with 2 samples.

Results

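Hikeshi and 9 protein-coding genes that flank it on mouse chromosome 7 were examined in neural stem cells, the self-renewing progenitors of neurons, astrocytes and oligodendrocytes. The members were taken by gene symbol from a list of 10 names, and all 10 were found among the 15953 genes of the deposited table. The series compared neural stem cells of Hikeshi conditional knockout (cKO) mice with those of wild-type mice, both grown in suspension, and total RNA was sequenced in 1 library labelled Hikeshi cKO and 1 library labelled wild type (WT). The sources used here do not give the strain, age and sex of the mice, the promoter that drove the recombinase, the exons removed or the number of animals or cultures behind each library. With 1 library per genotype there are no replicates, so every difference below compares these libraries and not the genotypes, and no p-value is given.

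Hikeshi is a nuclear import carrier. On heat stress it binds HSP70 chaperones in their ATP-bound form and takes them through the nuclear pore by contacts with nucleoporins, independently of the importin family that carries most other cargo. The flanking genes serve unrelated processes. Eed encodes a core subunit of Polycomb repressive complex 2 (PRC2), which methylates lysine 27 of histone H3. Picalm encodes a clathrin assembly adaptor, and Sytl2 an effector of RAB27 in vesicle docking. Me3 encodes the mitochondrial NADP-dependent malic enzyme, Prss23 a secreted serine protease and Ccdc81 a coiled-coil protein. Fzd4 encodes a receptor of norrin and WNT ligands, Tmem135 a membrane protein of peroxisomes and mitochondria, and Ctsc the lysosomal dipeptidyl peptidase cathepsin C.

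Along GRCm38.p6 the members ran, by rising coordinate, Ctsc, Tmem135, Fzd4, Prss23, Me3, Ccdc81, Hikeshi, Eed, Picalm and Sytl2, over 2.13 Mb from base 88278024 to base 90410719 of chromosome 7. Hikeshi itself (Entrez 67669) lay on the minus strand at 89918685 to 89941223. Its nearest members were Eed, 13.4 kb away on the side of higher coordinates and on the same strand, and Ccdc81, 15.1 kb away on the other side and also on the minus strand. Me3 was 64.3 kb, Picalm 189 kb, Sytl2 361 kb, Prss23 391 kb, Fzd4 509 kb, Tmem135 514 kb and Ctsc 1603 kb from Hikeshi. RefSeq places 12 protein-coding genes in this span. Of these 11 were in the table, the one besides the members being Rab38, and Ccdc83 was not analysed here.

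The region upstream of the Hikeshi start is shown because its product carries HSP70 and because the inducible HSP70 gene Hspa1a differed far more between the libraries than Hikeshi did. The 250 bases before the start used in RefSeq's promoter table are given 5′ to 3′ on the gene's own strand, from RefSeq on GRCm38.p6. Hikeshi is chr7:89941205-89941454 (minus strand), its neighbour Eed is chr7:89980977-89981226 (minus strand) and Hspa1a is chr17:34972157-34972406 (minus strand). The last 19 bases of the Hikeshi window lie inside the gene's span given above, because the start in the promoter table is that far within the span. Capitals mark a match to a heat shock element core, searched as GAANNTTC or TTCNNGAA on both strands.
Hikeshi: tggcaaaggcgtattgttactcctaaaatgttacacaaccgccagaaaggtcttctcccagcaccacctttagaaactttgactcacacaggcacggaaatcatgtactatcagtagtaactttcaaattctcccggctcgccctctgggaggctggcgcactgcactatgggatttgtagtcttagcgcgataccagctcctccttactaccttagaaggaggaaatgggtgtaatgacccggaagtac
Eed: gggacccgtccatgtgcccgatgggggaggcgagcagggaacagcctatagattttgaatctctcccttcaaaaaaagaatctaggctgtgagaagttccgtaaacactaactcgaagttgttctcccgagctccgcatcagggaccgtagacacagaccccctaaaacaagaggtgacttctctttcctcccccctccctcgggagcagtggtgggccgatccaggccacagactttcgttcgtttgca
Hspa1a: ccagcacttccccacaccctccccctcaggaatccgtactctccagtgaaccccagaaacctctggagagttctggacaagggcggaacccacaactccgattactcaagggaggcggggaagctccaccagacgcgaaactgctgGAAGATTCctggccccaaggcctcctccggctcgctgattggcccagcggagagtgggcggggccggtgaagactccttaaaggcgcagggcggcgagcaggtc

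Neither heat shock motif was found in these 250 bases of Hikeshi or Eed, whereas Hspa1a had 1 match to GAANNTTC. Of the other members, the windows of Picalm, Me3 and Ctsc were also examined, with 0 matches to either form. For comparison, 12.8% of 32851 promoter windows of that length held at least 1 of the motifs, 6.69% the form GAANNTTC and 7.17% the form TTCNNGAA. A match describes letters only, and the absence of one concerns only this window. Hikeshi and Eed also had no TATAAA, no CCAAT and no GGGCGG on either strand, motifs found in 12.4%, 33.8% and 32.7% of the windows. The Hikeshi window had a GC content of 48.4% and the Eed window 54.4%, against a median of 52.4% over all windows. The letters of the Hspa1a window include 1 CCAAT and 3 GGGCGG matches.

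Values are CPM, reads per 1000000 reads counted, where the total of a library was 18912683 reads for the cKO-labelled library and 18839079 for the WT-labelled library. Ratios are CPM in the cKO-labelled over CPM in the WT-labelled library, with a 95% Clopper-Pearson interval that covers counting error only. Log2 differences were taken after adding 1 CPM to each value. Genes that reached 1 CPM in either library were kept, and a kept gene was counted as apart when it was at least 1.5-fold higher or lower on that log2 scale. The added 1 CPM draws values together, so a gene just past 1.5-fold by its ratio can count as within. In the lists below this holds for the norrin co-receptor gene Lrp5 (1.51-fold lower in the cKO-labelled library) and the protease gene Htra3 (1.51-fold lower).

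Before the members are described, the libraries themselves differed in several ways. The 4 Y-linked genes Eif2s3y, Ddx3y, Kdm5d and Uty had 305 to 1265 reads each in the cKO-labelled library, while in the WT-labelled library they had 1 read in all, so Y-linked expression coincided with the genotype labels. Of 8 neural stem cell markers, all were detected in both libraries, with summed levels of 7287 CPM (cKO) and 5985 CPM (wild type). In the cKO-labelled library 1 of the 8 was at least 1.5-fold higher and 2 were lower by that much. Among all 12618 kept genes 4.22% were higher and 10.2% lower. The summed level of 10 oligodendrocyte lineage markers was 46.8 CPM in the cKO-labelled library and 1103 CPM in the WT-labelled library, and that of 6 astrocyte markers 855 CPM (cKO) and 2159 CPM (wild type). Sums for 5 neuronal markers were 532 CPM (cKO) and 669 CPM (wild type). Other cell types were scarce, with sums of 5.08 CPM (cKO) and 3.34 CPM (wild type) over 5 of 6 microglia markers and 3.91 CPM (cKO) and 2.23 CPM (wild type) over 3 of 5 endothelial markers. Over 5 of 6 pericyte and fibroblast markers the sums were 15.4 CPM (cKO) and 33.6 CPM (wild type). The others of these lists, Aif1, Cdh5, Cldn5 and Dcn, were not analysed here. Cx3cr1 and Csf1r were at 0 in the cKO-labelled library and Tmem119 and Lum at 0 in the WT-labelled library. In the cKO-labelled library, 9 of 9 kept oligodendrocyte lineage, 6 of 6 astrocyte and 2 of 5 neuronal markers were at least 1.5-fold lower. So were 2 of 3 kept pericyte and fibroblast markers, and 0 markers of these lists were higher. The 1 kept microglia marker and the 1 kept endothelial marker lay within 1.5-fold. The part of these differences in the values below was not tested, and in bulk RNA fewer cells of a type cannot be told apart from less RNA per cell.

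Of the 10 members, 9 were kept, of which 2 were higher and 1 was lower by at least 1.5-fold in the cKO-labelled library. Among all 12618 kept genes 14.4% were apart by that much, 4.22% higher and 10.2% lower. Prss23 and Sytl2 were the higher members and Ctsc the lower one, while Hikeshi, Eed, Picalm, Me3, Tmem135 and Fzd4 lay within 1.5-fold. The median log2 difference was 0.05 over the kept members and -0.02 over all kept genes. The member median turned to -0.05 with deposited TPM and -0.06 with deposited FPKM. With 9 genes the share moves by a large step for each gene, and nothing particular to the locus is read from it. The shares of all kept genes also stand beside the pathway and family lists below. Of those 12618 genes, 6037 had a log2 difference above 0 and 6581 below. Each list counts its own member, except that the HSP70 list leaves out Hikeshi. No list was tested.

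**Figure D1:**
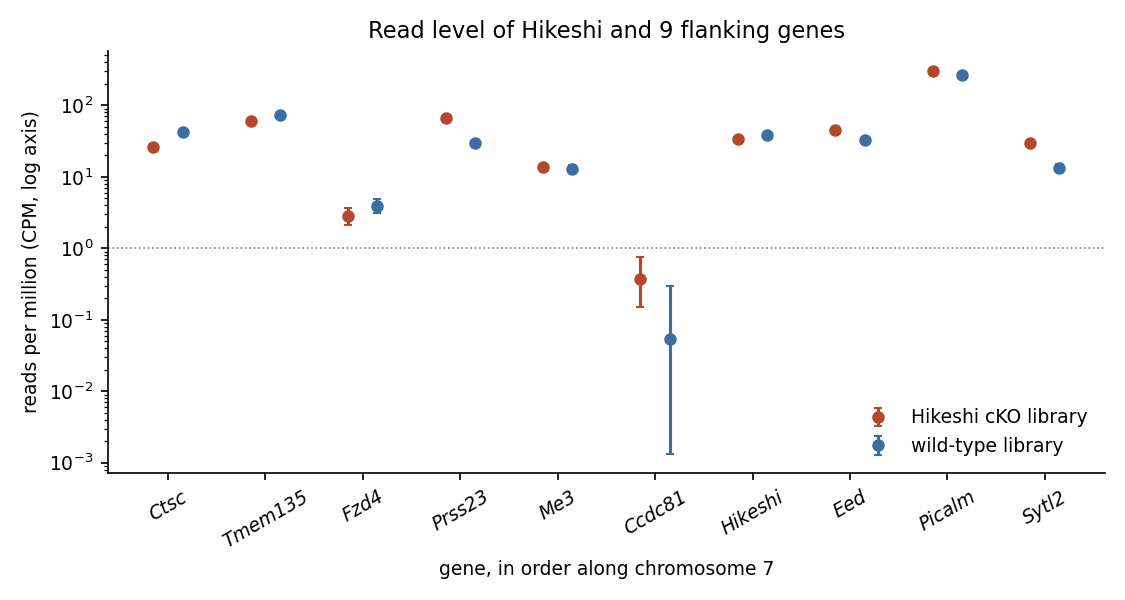
CPM (log axis) of the 10 genes in order along chromosome 7, with the cKO-labelled library left of the WT-labelled library for each gene. Bars are 95% Poisson counting intervals, hidden by the point where narrow, and the dotted line marks 1 CPM; Prss23 and Sytl2 stand higher and Ctsc lower in the cKO-labelled library, and Ccdc81 lies below 1 CPM in both.

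Hikeshi had 640 reads in the cKO-labelled library, against 718 in the WT-labelled library, or 33.8 CPM (cKO) and 38.1 CPM (wild type). Its ratio was 0.888 (0.797 to 0.989), a log2 difference of -0.17, so the targeted gene was read at nearly the same level under both labels. Counts over a whole gene do not show whether particular exons were lost, and reads per exon were not analysed here. The genotype is therefore taken from the labels and is not checked by this level. In TPM, a level corrected for transcript length, Hikeshi was at 82.35 in the cKO-labelled library, against 85.18 in the WT-labelled library, at percentile 86.9 (cKO) and 87.4 (wild type) of the listed genes.

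The TPM ratio of Hikeshi was 0.967, closer to 1 than the read ratio of 0.888. By construction such a gap reflects the transcript length used for the deposited values, which follows from the read count divided by the FPKM. Taking the column totals as the depth behind the FPKM, it was 669 bases for Hikeshi in the cKO-labelled library and 723 bases in the WT-labelled library. After dividing by the median gene the ratio of these lengths was 0.921, and 0.806% of the 9305 genes with at least 200 reads in both libraries had a ratio as low or lower. GENCODE lists 9 Hikeshi transcripts of 297 to 2539 bases, 6 of them coding, but the sources used here do not give how reads were divided among transcripts.

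Other members differed in this length as well. Of the 8 members with at least 200 reads in both libraries, 4 had a length ratio more than 5% from 1, where 3.77% of such genes did, a limit set after the values were seen. In Me3 the implied length was 3186 bases (cKO) and 2803 bases (wild type), a centred ratio of 1.13, and 0.312% of genes were as high or higher. Ctsc had 6486 bases in the cKO-labelled library, against 5860 in the WT-labelled library, a ratio of 1.10, with 0.494% as high or higher. Sytl2 had 3928 bases (cKO) and 3647 bases (wild type), a ratio of 1.07, with 0.881% as high or higher. Of these 4, Hikeshi had the shorter length in the cKO-labelled library and the other 3 had the longer one. The remaining members, Prss23, Eed, Tmem135 and Picalm, had ratios between 0.983 and 1.002. On the whole chromosome 7, 3.70% of such genes were more than 5% apart. With 8 members the share moves by a large step for each gene, and nothing particular to the locus is read from it. The implied lengths of Ctsc exceeded its longest GENCODE transcript, 3220 bases, and the sources used here do not name the annotation behind the table. The estimated reads of Me3 were not whole numbers, at 256.68 in the cKO-labelled library, against 246.11 in the WT-labelled one.

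**Figure D2:**
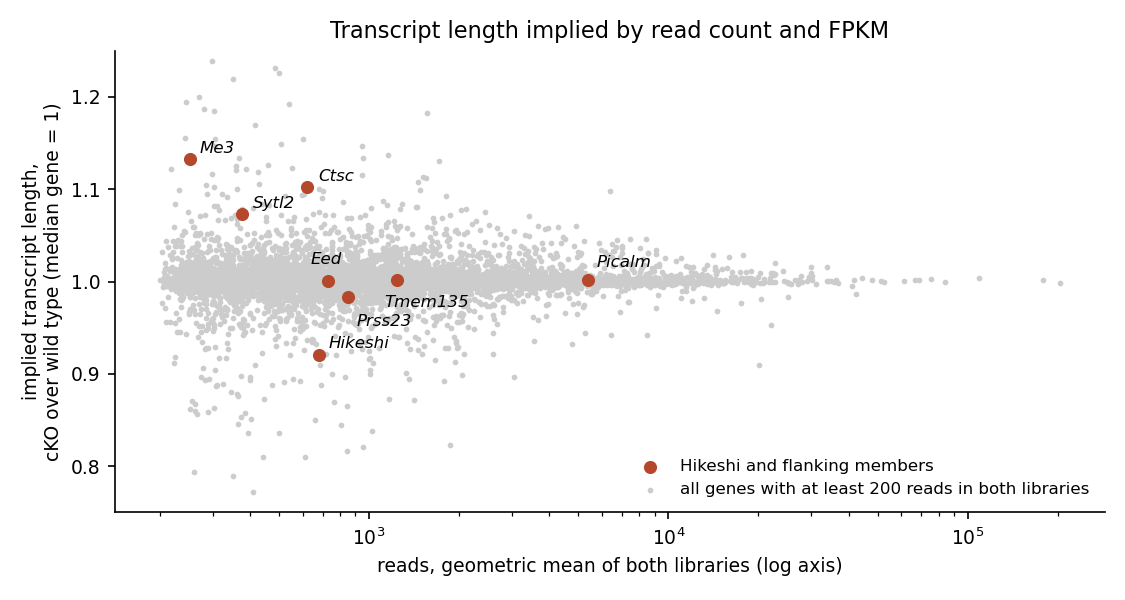
Ratio of the transcript length implied by read count and FPKM, cKO over wild type with the median gene set to 1, against reads (log axis) for genes with at least 200 reads in both libraries. Hikeshi lies low at 0.921 while Me3, Ctsc and Sytl2 lie high at 1.13, 1.10 and 1.07; 12 genes fall outside the vertical axis.

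Eed, the PRC2 subunit that recognises methylated histone H3, had 847 reads in the cKO-labelled library, against 624 in the WT-labelled library, or 44.8 CPM (cKO) and 33.1 CPM (wild type). Its ratio was 1.35 (1.22 to 1.502), in the other direction from its neighbour Hikeshi. Per length, Hikeshi was 1.98 times the level of Eed in the cKO-labelled library and 2.78 times in the WT-labelled library, in TPM. Of 11 PRC2 genes, Eed included and all kept, 0 were at least 1.5-fold apart, where 14.4% of all kept genes were. Above 0 lay 8 of the 11 and below 0 lay 3, beside 6037 above and 6581 below among all 12618 kept genes. The median log2 difference was 0.30 over the PRC2 genes and -0.02 over all kept genes. The core subunit gene Suz12 had 2314 reads (cKO) and 1704 reads (wild type), a ratio of 1.35 (1.27 to 1.44). Ezh2, the methyltransferase gene, had 1833 reads (cKO) and 1412 reads (wild type), a ratio of 1.29 (1.21 to 1.39). Jarid2, an accessory subunit gene, lay at the other end with a ratio of 0.791 (0.713 to 0.877).

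Picalm was the most abundant member. It had 5777 reads in the cKO-labelled library, against 5035 in the WT-labelled library, or 305 CPM (cKO) and 267 CPM (wild type), and its ratio of 1.14 (1.10 to 1.19) had the narrowest interval of the members. In TPM it was at 131.93 (cKO) and 115.31 (wild type). Of 19 genes of clathrin-mediated endocytosis, all kept, 0 were at least 1.5-fold higher and 1 was lower in the cKO-labelled library, with a median of -0.09. Picalm and the clathrin heavy chain gene Cltc, at a ratio of 1.15 (1.12 to 1.18), were among 4 genes above 0. The lower gene was Fcho1, a factor of early coated pits, with 72 reads (cKO) against 165 (wild type). Snap91, the relative of Picalm that is enriched in neurons, had a ratio of 0.946 (0.892 to 1.003).

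Sytl2 stood 2.30-fold higher in the cKO-labelled library (1.98 to 2.68), with 572 reads in it and 248 in the WT-labelled library, or 30.2 CPM (cKO) and 13.2 CPM (wild type). In TPM it was at 12.54 (cKO) and 5.84 (wild type), at percentile 51.5 (cKO) and 39.2 (wild type) of listed genes. Its relatives and partners were scarce. Of 10 genes of the synaptotagmin-like and RAB27 list, 8 were listed and 4 kept, with 1 higher, 2 lower and 1 within 1.5-fold. Rab27a, the small GTPase that Sytl2 binds, had 8 reads (cKO) against 25 (wild type) and Myrip, another RAB27 effector gene, 16 (cKO) against 38 (wild type), both past the 1.5-fold limit on the lower side. Each was kept only through its level in the WT-labelled library, and the counting intervals reach below 1.5-fold, at 3.14-fold lower (1.37 to 8.05) for Rab27a and 2.38-fold lower (1.30 to 4.58) for Myrip. Rab27b was within 1.5-fold at 61 reads (cKO) and 64 reads (wild type). Sytl1, Sytl4 and Sytl5 did not reach 1 CPM in either library.

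Prss23 showed a difference of about the same size as Sytl2 on the other side of Hikeshi. It had 1269 reads in the cKO-labelled library, against 569 in the WT-labelled library, or 67.1 CPM (cKO) and 30.2 CPM (wild type), a ratio of 2.22 (2.01 to 2.46). In TPM it was at 61.76 (cKO) and 27.26 (wild type). Hikeshi was 1.33 times the level of Prss23 in the cKO-labelled library and 3.12 times in the WT-labelled library, in TPM. Of 10 PRSS and HTRA protease genes 9 were listed and 7 kept, and Prss23 was the 1 that was higher. The 1 that was lower was Prss35, a close relative of Prss23, with 40 reads (cKO) against 116 (wild type), or 2.91-fold lower in the cKO-labelled library (2.02 to 4.28). The abundant Htra1 had a ratio of 0.921 (0.863 to 0.983).

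Ctsc, the member farthest from Hikeshi, was 1.64-fold lower in the cKO-labelled library (1.46 to 1.84). It had 487 reads in that library, against 796 in the WT-labelled library, or 25.7 CPM (cKO) and 42.3 CPM (wild type). In TPM it was at 6.46 (cKO) and 11.65 (wild type), a ratio of 0.555 and thus further apart than in reads. Of 15 cathepsin and cystatin genes 13 were listed and 12 kept, with a median of -0.26. Of those kept, 0 were at least 1.5-fold higher and 3, Ctsc included, were lower. Among all kept genes 4.22% were higher and 10.2% lower. The other lower genes were Cst3, the abundant secreted inhibitor cystatin C, at 2.04-fold (1.97 to 2.10), and Ctso at 1.90-fold (1.70 to 2.12). Ctsd and Ctsb, the lysosomal cathepsin genes of high level here, had ratios of 1.12 (1.09 to 1.14) and 0.867 (0.837 to 0.897).

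Tmem135 and Fzd4 lie head to head, and their annotated spans overlap by 338 bases on opposite strands. Tmem135 had 1126 reads in the cKO-labelled library, against 1364.45 in the WT-labelled library. Fzd4 had 53 reads in the cKO-labelled library, against 73.55 in the WT-labelled library. Their sum was 1179 reads in the cKO-labelled library, against 1438 in the WT-labelled one, where the fractional parts add up to a whole read. The sources used here do not give how reads in the overlap were assigned, so the split between these genes is uncertain. The sum of both genes was 1.22-fold lower in the cKO-labelled library (1.13 to 1.32). Tmem135 alone had a ratio of 0.822 (0.759 to 0.890), and Fzd4 alone 0.713 (0.492 to 1.03), an interval that includes 1.

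Among 14 Frizzled receptors and norrin partners, all kept, 2 were higher and 2 lower by at least 1.5-fold, with a median of -0.08. The higher ones were Fzd10, with 648 reads (cKO) against 294 (wild type), and Fzd5, with 169 (cKO) against 89 (wild type). The lower ones were Fzd6, with 16 reads (cKO) against 40 (wild type), and Fzd7, with 167 (cKO) against 261 (wild type). Fzd6 was kept only through its level in the WT-labelled library. Counting intervals reach below 1.5-fold for Fzd5 (1.45 to 2.47-fold higher), Fzd6 (1.37 to 4.80-fold lower) and Fzd7 (1.29 to 1.92-fold lower). The ligand gene Ndp, which encodes norrin, had 812 reads (cKO) and 562 reads (wild type), a ratio of 1.44 (1.29 to 1.61), and the norrin co-receptor gene Tspan12 a ratio of 0.939 (0.893 to 0.989). Fzd4 was thus a low Frizzled gene in these cells, at 1.35 TPM (cKO) and 1.87 TPM (wild type), where Fzd1 was at 48.98 TPM (cKO) and 40.80 TPM (wild type). Of 19 peroxisome and organelle fission genes, Tmem135 included, 0 were at least 1.5-fold apart, where 14.4% of all kept genes were. Below 0 lay 15 of the 19, beside 6581 of all 12618 kept genes, and the median of the 19 was -0.13. Tmem135 was among the lowest of the 19 with a log2 difference of -0.28, beside Pex6 at -0.34 and Pex7 at -0.32.

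Me3 had 257 reads, rounded, in the cKO-labelled library, against 246 in the WT-labelled library, or 13.6 CPM (cKO) and 13.1 CPM (wild type). Its ratio of 1.04 (0.870 to 1.24) did not differ detectably from 1, and in TPM the direction turned, with 6.93 in the cKO-labelled library, against 7.54 in the WT-labelled library. Of 8 malate and pyruvate enzyme genes 0 were 1.5-fold apart, with a median of -0.04. Me1, which encodes the cytosolic malic enzyme, was the most abundant of the malic enzyme genes at 110.49 TPM (cKO) and 146.40 TPM (wild type), a read ratio of 0.756 (0.724 to 0.789). Me2, the other mitochondrial one, had a ratio of 1.05 (0.965 to 1.15).

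Ccdc81 was barely read, with 7 reads in the cKO-labelled library, against 1 read in the WT-labelled library. It was the 1 member below the filter, at 0.370 CPM (cKO) and 0.0531 CPM (wild type), and its ratio of 6.97 has an interval of 0.896 to 314, which includes 1. Rab38, the other listed gene within the span, was also below the filter with 11 reads in the cKO-labelled library, against 15 in the WT-labelled library.

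Of 7 genes taken as cytosolic HSP70 genes and their regulator Hsf1, all kept, 2 were higher and 1 lower by at least 1.5-fold in the cKO-labelled library, with a median of 0.19. Hspa1a, whose upstream window is shown above, had 2027 reads (cKO) and 116 reads (wild type), and its near-identical copy Hspa1b, with which it can share reads, 2075 reads (cKO) and 68 reads (wild type). The constitutive Hspa8 had a ratio of 1.41 (1.39 to 1.42) and Hspa2 one of 0.642 (0.553 to 0.744). The remaining genes of the list differed less, with ratios of 1.14 (1.03 to 1.27) for Hsf1, 1.15 (0.798 to 1.66) for Hspa1l and 1.01 (0.940 to 1.09) for Hspa14.

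**Figure D3:**
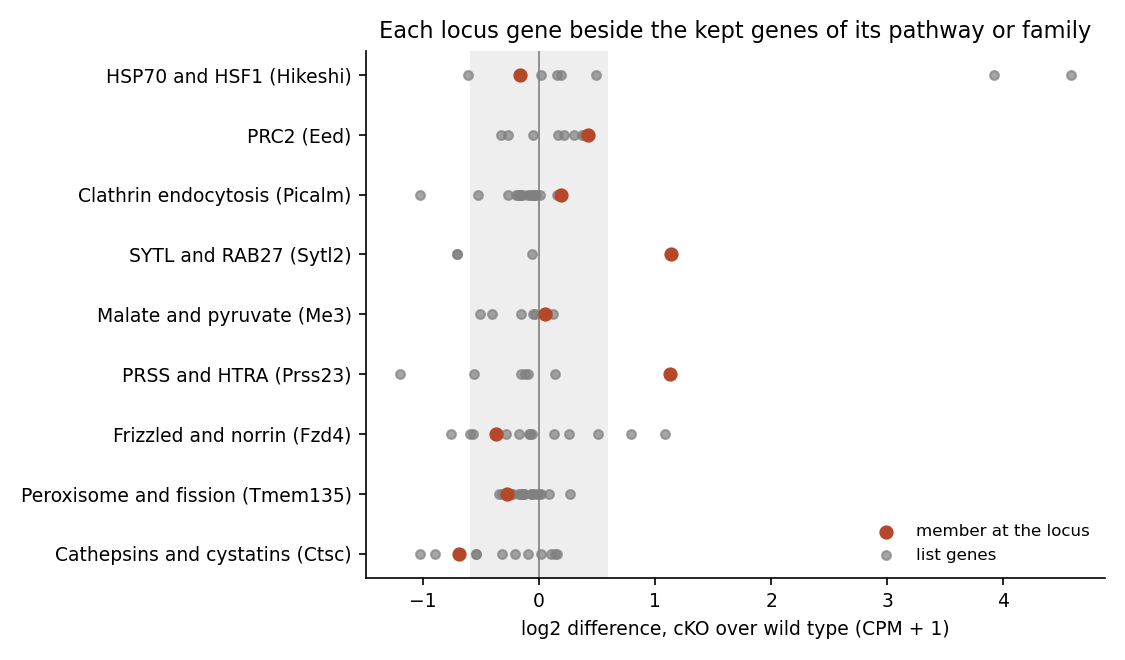
Log2 differences, cKO over wild type on CPM + 1, of the kept genes of each pathway or family (grey), with the member at the locus in red; the shaded band is within 1.5-fold. Eed is 1 of 8 PRC2 genes above 0, with 3 below. Sytl2 and Prss23 lie above the other kept genes of their lists, which hold 4 and 7 kept genes, and Ccdc81 has no list.

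By level per length, the members ran in the cKO-labelled library from Picalm, Hikeshi, Prss23, Eed and Tmem135 (131.93 to 31.37 TPM) through Sytl2, Me3 and Ctsc (12.54 to 6.46 TPM) to Fzd4 and Ccdc81 (1.35 and 0.25 TPM). In the WT-labelled library the order was Picalm, Hikeshi, Tmem135, Eed and Prss23 (115.31 to 27.26 TPM), then Ctsc, Me3 and Sytl2 (11.65 to 5.84 TPM), then Fzd4 and Ccdc81 (1.87 and 0.04 TPM). Picalm and Hikeshi led and Fzd4 and Ccdc81 ended the order in both libraries, Eed and Me3 kept their places, and Prss23, Tmem135, Sytl2 and Ctsc changed places. Without replicates the spread of these levels is unknown, so neighbours such as Me3 and Ctsc in the cKO-labelled library cannot be ranked.

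Around the locus, 28 genes within 5 Mb of Hikeshi were listed and 21 kept, of which 3 were at least 1.5-fold higher and 1 lower. Without the members, 12 genes were kept, with 1 higher, 0 lower and a range of log2 differences of -0.30 to 1.17. That gene was Ddias, 2916 kb from Hikeshi, with 675 reads in the cKO-labelled library, against 289 in the WT-labelled library. Crebzf, Tmem126a and Tmem126b, which follow Sytl2 within 528 kb of Hikeshi, had log2 differences of 0.01, -0.05 and 0.04. The genes named here besides the members were chosen after their values were seen. The kept genes next to Prss23 (Fzd4 and Me3) and next to Sytl2 (Picalm and Crebzf) lay within 1.5-fold. Over chromosome 7, 28 of 932 kept genes were higher and 87 lower, 12.3% in all, with a median of -0.02.

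**Figure D4:**
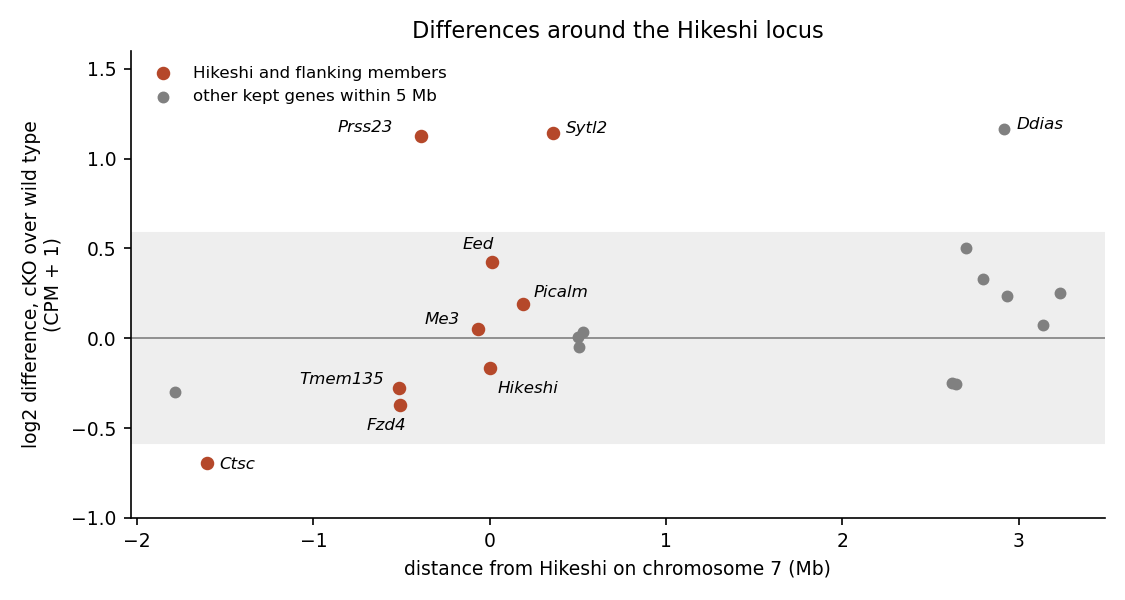
Log2 difference, cKO over wild type on CPM + 1, of the 21 kept genes within 5 Mb against their distance from Hikeshi, members in red and other genes in grey; the shaded band is within 1.5-fold. Prss23, Sytl2 and the distant Ddias lie above the band and Ctsc below it, while Hikeshi and its nearest kept neighbours Eed and Me3 lie inside.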

How the data were processed

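Total RNA was sequenced with standard Illumina libraries, per the labels' protocols, and the submitters' processing notes name GRCm38.p6 as the genome build. The sources used here do not give the aligner, counter, annotation or strand setting. The authors deposited an estimated count of reads per gene, TPM and FPKM, so named per the file headers, and normalized read counts, a scaled signal per the file headers, which were not used. Of the counts, 89.8% (cKO) and 90.0% (wild type) were whole numbers. Columns were matched to libraries by genotype.

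Counts were rounded and divided by the column totals. Symbols gave the members, and Entrez numbers matched 15909 genes to RefSeq coordinates. Analyses used Python 3.11.15 with SciPy 1.17.1, and TMM scaling used edgeR 4.0.16. The interval and the calling rule were tried on simulated Poisson counts. Such counts meet the interval's own assumption, so this checks the code and not the spread between libraries. Without molecular identifiers, reads are not independent molecules, and intervals cover counting error only. Every member is named, as are up to 3 genes per direction of each pathway list and the partners closest to a member. The members and lists were chosen with earlier results of these data known. Promoter windows were available for 8 of the 10 members, and matches were listed singly only for Hikeshi, Eed, Picalm, Me3 and Ctsc. Alternatives were other scalings, a smaller pseudocount, TPM, FPKM, unrounded counts and no filter.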

Additional observations from a re-analysis of the deposited data

How the results depend on the processing

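Under 7 alternatives (TMM scaling, median-of-ratios scaling, a pseudocount of 0.25 CPM, deposited TPM, deposited FPKM, no filter on low genes and counts with decimals) the members at least 1.5-fold apart stayed at 2 higher and 1 lower, and all 9 kept members stayed on their side of that limit. The log2 difference of Hikeshi ranged from -0.17 to -0.05, nearest to 0 with deposited TPM. Of 70 differences of single members recomputed, 69 moved by no more than the narrower side of their counting interval on the log2 scale. Part of that count was fixed in advance. Removing the filter cannot change the difference of a single gene, and decimals cannot change that of a member with whole counts. Ccdc81, at 7 reads (cKO) against 1 (wild type), has so wide an interval that its differences could hardly move past it. With the smaller pseudocount its log2 difference went from 0.38 to 1.03. That lies past the 1.5-fold limit, and Ccdc81 was left uncounted only because it is below the filter. The 1 difference that moved past its interval side was that of Sytl2, at 0.92 with FPKM against 1.14, and the cause was not tested. The member median was 0.05, turned to -0.05 with TPM and -0.06 with FPKM, and was 0.12 with no filter. Me3 changed sign with TPM and FPKM (lowest -0.11). The median of all genes stayed between -0.02 and 0.01. No paired analysis was possible because each genotype had 1 library, and no replicate could be left out. Depth limits Ccdc81 and Fzd4, whose intervals include 1.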
